A study of Arabidopsis thaliana with 60 samples.

Results

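The transcripts described here were higher in Arabidopsis thaliana seedlings after 3 h with salicylic acid and were not, or only little, higher with 3 other compounds of the same collection. They were chosen by a rule on the measured values. A probe set was taken where its log2 intensity, averaged over the 2 salicylic acid arrays, was at least 1.5 above the average of the 2 mock arrays, and where the same difference was below 0.75 for TIBA, for ibuprofen and for 2,4,6T. A pseudocount was added before the logarithm, equal to the median over arrays of their 20th percentile (133.4) without its decimal. The rule also left out 5 genes by name (UGT76B1, AT1G19960, AT5G03350, GRX480 and SAG101), of which only AT1G19960 and AT5G03350 met it. Of 22746 probe sets, 79 were members. All 79 passed the filter on low values, which kept 17301 probe sets, and they passed it in part through the salicylic acid arrays themselves.

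All groups were whole seedlings of the ecotype Col-0, 7 days old and grown at 23 °C, hybridised to Affymetrix ATH1 arrays, with 2 arrays in each of 30 groups. By the brackets in the labels a treated group belongs to F1, F2 or G, and each of these has a mock. F1 held 18 compounds at 3 h, F2 held 7 of these at 12 h, and G held 2 groups at 3 h. The F1 compounds were salicylic acid, TIBA, ibuprofen, 2,4,6T, CHX, AgNO3, PCIB, NPA, AVG, MG132, propiconazole, uniconazole, paclobutrazol, prohexadione, daminozide, Brz220 and Brz91 at 10 µM and PNO8 at 1 µM. F2 repeated propiconazole, uniconazole, paclobutrazol, prohexadione, Brz220 and Brz91 at 10 µM and PNO8 at 1 µM, and G held PNO8 at 10 µM and Brz220 at 3 µM. Salicylic acid was measured at 1 dose and 1 time. Neither the content of the mock nor the origin of the replicates (1 culture or separate ones) is labelled, so the p-values measure no more than array-to-array spread, possibly of technical origin.

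Salicylic acid is the hormone of plant defence against pathogens that feed on living cells. It is perceived by NPR proteins, which act with TGA transcription factors on defence genes, and it is inactivated mainly by attachment of sugars. TIBA and NPA block the transport of auxin, CHX (cycloheximide) stops translation, MG132 inhibits the proteasome, silver ions block ethylene perception, and AVG blocks ethylene synthesis.

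Among the members, 35 probe sets named exactly 1 gene, 1 named several and 43 were not listed in the probe annotation and are given by their probe set number. The named members lie on chromosomes 1 to 5, with 12, 5, 7, 2 and 9 genes in that order. AT5G45500 and AT5G45510, both encoding leucine-rich repeat proteins, are neighbours. AT3G48080 is the neighbour and close copy of EDS1, a central regulator of immunity by intracellular receptors, so both transcripts can share signal on a probe.

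The differences of the members for salicylic acid spanned 1.51 to 6.13 on the log2 scale, with a median of 2.09. These values chose the members and are a description. Of the 79, 40 differed by 2 or more, 15 by 3 or more and 7 by 4 or more. For TIBA the members ranged from -1.74 to 0.73, for ibuprofen from -1.44 to 0.68 and for 2,4,6T from -1.71 to 0.57. All 3 differences were negative for 23 members and positive for 17. Just inside the threshold were AT5G45500 at 1.51 and AT1G49750 at 1.55, and just outside were AT1G31550 at 1.498 and AT1G13470 at 1.48.

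Both salicylic acid arrays were above both mock arrays for all 79 members, as the rule nearly requires. They were also above all 14 arrays of 7 inhibitors of gibberellin or brassinosteroid synthesis at 3 h in F1 (propiconazole, uniconazole, paclobutrazol, prohexadione, daminozide, Brz220 and Brz91). The rule did not use those 14 arrays, but it chose the members on the salicylic acid arrays, so this separation is largely set by the choice and is given as a description. Against the mean of those 7 groups the differences spanned 1.29 to 5.96 with a median of 1.95, and 69 of 79 were at or above 1.5. For 53 members both salicylic acid arrays were above every one of the other 58 arrays. That count too is favoured by the choice and was not made over all probe sets, so it is a description. In the mock, 27 members were not above the 40th percentile of either array, 9 were above it on 1 array and 43 on both, so for the dim members the log2 difference understates the change.

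**Figure D1:**
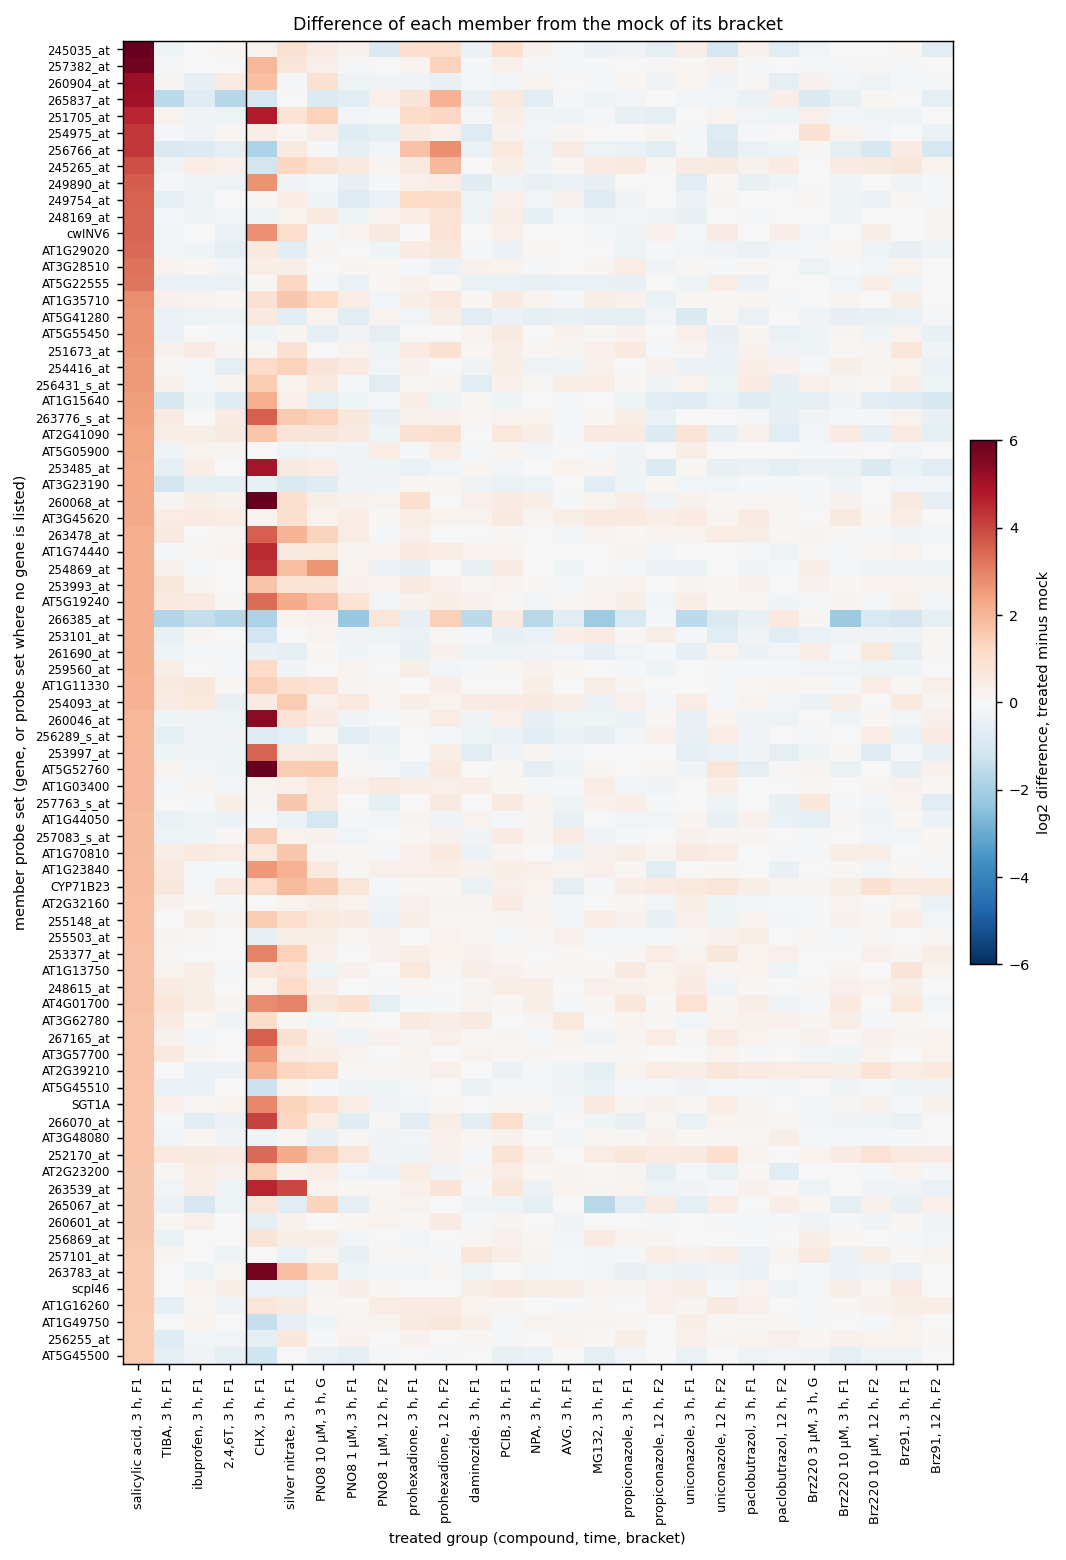
Log2 difference from the mock of the same bracket for the 79 members (rows, ordered by the salicylic acid difference) in the 27 treated groups (columns). The 4 columns left of the line were used to choose the members. To the right, CHX, AgNO3 and PNO8 at 10 µM hold most of the red cells, and prohexadione at 12 h is red in several of the top rows.

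The members with the largest differences have no gene name in the annotation. Probe set 245035_at had 24852.5 and 29277.6 with salicylic acid, against 284.0 and 224.3 in the mock, and its highest value on any other array was 1367.5. Probe set 257382_at had 7683.4 and 9442.2 with salicylic acid, against 22.9 and 23.4 in the mock. Probe set 265837_at had 23382.2 and 27718.3 with salicylic acid, against 699.7 and 577.5 in the mock. In all 3 the groups were far apart, with no overlap.

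Of the named members, 9 were grouped as receptor kinases, proteins related to them or proteins with leucine-rich repeats. Many proteins by which plants sense microbes and damage are of these types. The share of these types among all named genes was not counted. AT1G35710, a leucine-rich repeat kinase, had 4304.8 and 3146.4 with salicylic acid, against 407.4 and 415.1 in the mock. AT5G41280, a secreted cysteine-rich protein related to receptor-like kinases, had 4362.6 and 2525.9 with salicylic acid, against 460.8 and 336.1 in the mock. In both genes the lower salicylic acid array was several times the higher mock array. AT1G11330, a lectin receptor kinase, differed by 2.11. AT3G57700, a protein kinase, differed by 1.71, AT2G23200, a receptor kinase, by 1.62, and AT1G16260, a wall-associated-kinase-like protein, by 1.55. AT5G45510, AT5G45500 and AT1G49750, which carry leucine-rich repeats, differed by 1.68, 1.51 and 1.55.

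Another 4 bind calcium or have a C2 domain, a module that attaches proteins to membranes. AT1G29020, an EF-hand protein, had 9807.7 and 5147.2 with salicylic acid, against 474.9 and 643.4 in the mock. AT2G41090, a calmodulin-like protein, had 27886.1 and 29760.1 with salicylic acid, against 6725.6 and 4559.0 in the mock, so it was already bright without treatment. The C2-domain proteins AT1G70810 and AT3G62780 differed by 1.88 and 1.73.

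There were 8 enzymes of metabolism and the cell wall. cwINV6, of the cell wall invertase family, whose members split sucrose or fructans outside the cell, had 6542.4 and 4176.5 with salicylic acid, against 337.5 and 364.2 in the mock. AT5G05900, a UDP-glycosyltransferase, of the class that attaches sugars to small molecules, had 791.1 and 727.5 with salicylic acid, against 28.8 and 56.4 in the mock, and no other array passed 198.4. The groups did not overlap in either gene. The others were AT1G03400, a 2-oxoglutarate-dependent oxygenase (1.94), CYP71B23, a cytochrome P450 (1.85), AT2G32160, a methyltransferase (1.81), AT1G13750, a purple acid phosphatase (1.76), AT4G01700, a chitinase (1.76) and scpl46, a serine carboxypeptidase-like protein (1.58).

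Among immune regulators, SGT1A, a partner of the chaperone HSP90 that stabilises intracellular immune receptors, had 3387.0 and 3210.2 with salicylic acid, against 990.8 and 896.3 in the mock. AT3G48080 had 1129.8 and 626.3 with salicylic acid, against 203.7 and 153.6 in the mock. AT3G23190, related to proteins that cause lesions like those of the hypersensitive response, had 10337.1 and 6052.7 with salicylic acid, against 1593.6 and 1413.0 in the mock. For AT3G23190 no array outside salicylic acid passed 1723.3.

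Membrane, transport and surface proteins made up 4 members. AT5G55450, a lipid transfer protein, had 8815.1 and 6778.4 with salicylic acid, against 1253.2 and 952.9 in the mock. AT5G19240, a glycoprotein held to the membrane by a lipid anchor, differed by 2.15, AT5G52760, with a heavy-metal-associated domain, by 1.94, and AT2G39210, a major facilitator transporter, by 1.70. Of the remaining 7 named members, AT3G28510, an AAA-type ATPase, had 1372.9 and 1434.7 with salicylic acid, against 50.2 and 5.0 in the mock, and no other array passed 124.9. AT3G45620, a WD40-repeat protein, differed by 2.25 and AT1G44050, a cysteine- and histidine-rich C1-domain protein, by 1.88. AT5G22555, AT1G15640, AT1G74440 and AT1G23840, for which no role is given here, differed by 3.19, 2.52, 2.18 and 1.87.

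**Figure D2:**
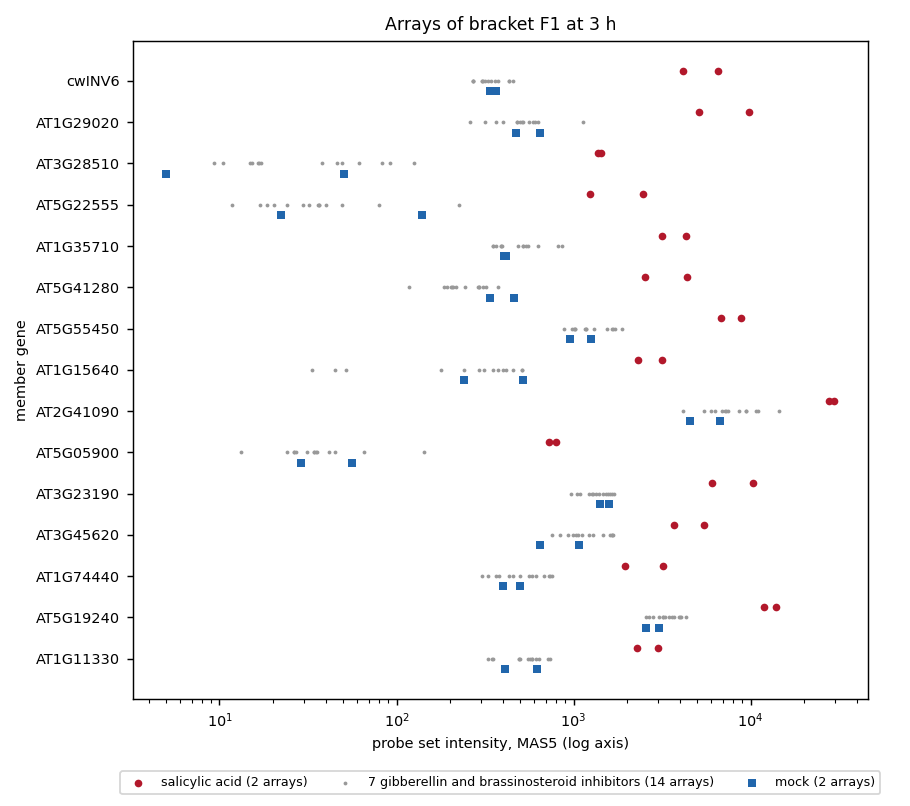
Probe set intensity (log axis) on single F1 arrays at 3 h for the 15 named members with the largest differences: salicylic acid (red circles, 2 arrays), 7 gibberellin and brassinosteroid synthesis inhibitors (grey points, 14 arrays) and mock (blue squares, 2 arrays). For AT3G28510 salicylic acid gave 1372.9 and 1434.7, against 50.2 and 5.0 in the mock. In each gene both red circles lie to the right of all grey points and both blue squares.

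The remaining groups were compared without the arrays that the rule used. Groups at 12 h were set against the F2 mock and groups of G against the G mock. CHX, AgNO3, PCIB, NPA, AVG, MG132 and PNO8 at 1 µM in F1 were set against the mean of the 7 gibberellin and brassinosteroid synthesis inhibitors named above, because the F1 mock had helped to choose the members. That makes 16 comparisons. Each was tested with limma over the 17301 probe sets with Benjamini-Hochberg adjustment, and a probe set was called at an adjusted p under 0.05. The 7 comparisons in F1 share their comparator arrays.

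CHX moved the largest number of members. Of the 79, 43 were higher and 9 lower than in the comparator. Over all probe sets tested 18.4% were called higher and 29.7% lower. The members' median was 0.85, beside -0.17 over all probe sets tested. All 43 were positive and all 9 negative in both replicates taken singly.

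AT5G52760 had the largest difference, with 30162.3 and 26753.9 in CHX seedlings, against 4.4 to 158.4 over the 14 comparator arrays (median 105.1). Its difference was 7.05 ± 0.28 (SE, adjusted p = 4.82e-31, limma), and the groups did not overlap. AT1G74440 had 14786.6 and 11230.8 in CHX seedlings, against 302.3 to 753.7 in the comparator (median 529.75), a difference of 4.34 ± 0.23 (SE, adjusted p = 3.75e-25, limma). AT5G19240 had 30075.3 and 29012.1 in CHX seedlings, against 2576.4 to 4303.7 in the comparator (median 3377.0), a difference of 3.08 ± 0.21 (SE, adjusted p = 6.31e-20, limma). SGT1A rose by 2.83, cwINV6 by 2.78, AT3G57700 by 2.61 and the chitinase AT4G01700 by 2.35. Among members without a gene name, 263783_at rose by 6.09, 260068_at by 5.75 and 260046_at by 5.62.

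Of the receptor kinases, related proteins and leucine-rich repeat proteins 5 of 9 rose with CHX and 3 of 9 fell. Over all probe sets 18.4% were higher and 29.7% lower. AT1G49750 had 3052.4 and 2593.0 in CHX seedlings, against 6975.6 to 11955.7 in the comparator, and fell by 1.63 (SE 0.24, adjusted p = 2.73e-08, limma). Its fellows AT5G45510 and AT5G45500, the neighbouring pair, fell by 1.12 and by 0.96. AT5G45510 had 1733.5 and 1293.2 in CHX seedlings, against 2873.0 to 4636.8 in the comparator. For all 3 genes both CHX arrays were below every comparator array. In the other groups, 3 of 4 calcium-binding or C2 proteins, 3 of 8 enzymes and 3 of 4 membrane and surface proteins rose, and scpl46 fell by 0.68. SGT1A was the only immune regulator of 3 that was called. Probe sets 256766_at and 245265_at, among the 8 members with the largest salicylic acid differences, fell with CHX by 1.96 and by 1.54.

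With CHX 22 members had a mean above their mean with salicylic acid, and for 21 of these the lower CHX array was above the higher salicylic acid array. Neither count was made over all probe sets, and the salicylic acid arrays had helped to choose the members, so both are a description. Probe set 251705_at is an example at the top of the salicylic acid order, with 19236.8 and 15942.9 in CHX seedlings and 16270.6 and 14890.6 in salicylic acid seedlings. Others at the top of that order were not called with CHX: 245035_at had 276.7 and 345.2 in CHX seedlings, against 163.5 to 1165.0 in the comparator.

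With AgNO3, 33 members were higher and 2 lower, where 9.25% of all probe sets tested were called higher and 8.06% lower. The members' median was 0.51, beside -0.09 over all probe sets. AT4G01700 had 11269.5 and 9836.8 in AgNO3 seedlings, against 863.1 to 2560.7 in the comparator (median 1674.5), a difference of 2.53 ± 0.22 (SE, adjusted p = 1.2e-14, limma). That level was also above its 4576.8 and 4241.6 with salicylic acid. AT1G23840 rose by 1.96, AT5G19240 by 1.95, AT5G52760 by 1.80, CYP71B23 by 1.58 and AT5G22555 by 1.47. The leucine-rich repeat kinase AT1G35710 rose by 1.40 and SGT1A by 1.29.

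The lower members with AgNO3 were AT3G23190 and AT1G49750. AT3G23190 had 636.7 and 819.7 in AgNO3 seedlings, against 966.6 to 1685.1 in the comparator, and fell by 0.79 (SE 0.22, adjusted p = 0.00555, limma). AT1G49750 fell by 0.76 (SE 0.24, adjusted p = 0.0151, limma). By role, AgNO3 raised 2 of 9 receptor kinases, related proteins and leucine-rich repeat proteins and 1 of 4 calcium-binding or C2 proteins. It also raised 3 of 8 enzymes and 3 of 4 membrane and surface proteins. Probe set 263539_at had 8887.3 and 6307.3 in AgNO3 seedlings and 1336.6 and 1261.7 in salicylic acid seedlings, against 172.7 to 619.7 in the comparator. The number called was 30 without replicate 2 of AgNO3 and 22 without replicate 1.

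PNO8 at 10 µM gave 13 higher members and 1 lower, against its own mock in G. Over all probe sets tested 3.47% were called higher and 1.2% lower. The members' median was 0.33, beside -0.04 over all. AT5G19240 had 8165.9 and 7597.2 in PNO8 seedlings, against 2387.7 and 2104.1 in the mock, a difference of 1.75 ± 0.28 (SE, adjusted p = 3.61e-06, limma). AT5G52760 had 556.8 and 541.7 in PNO8 seedlings, against 33.3 and 175.3 in the mock, a difference of 1.59 ± 0.37 (SE, adjusted p = 0.00272, limma). CYP71B23 had 3255.9 and 3374.8 in PNO8 seedlings, against 1052.7 and 1009.0 in the mock, a difference of 1.57 ± 0.30 (SE, adjusted p = 0.000151, limma). The groups were apart in all 3 genes.

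With PNO8 at 10 µM AT2G39210 rose by 1.201, AT1G35710 by 1.198 and SGT1A by 0.996. AT1G44050 was the lower member, with 33.2 and 16.7 in PNO8 seedlings, against 235.7 and 162.5 in the mock (fell by 1.07, SE 0.33, adjusted p = 0.0473, limma). That call rests on low values, as no array outside salicylic acid passed 264.4 for this gene. Neither F1 mock array had it above the percentile of the filter, while both salicylic acid arrays did. Among members without a gene name 254869_at had the largest difference, 2.63, with 1975.5 and 2096.9 in PNO8 seedlings, against 289.2 and 157.5 in the mock. Of the 13 higher members, 13 were also higher with CHX (100% of the 13 and 30.2% of the 43). With AgNO3, 12 were also higher (92.3% of the 13 and 36.4% of the 33). The same overlap over all probe sets was not counted, so it is not known to be particular to the members. The PNO8 comparison shares no array with those for CHX and AgNO3. The number called was 5 to 8 when any 1 of the 4 arrays was left out. With the scaling set (the arrays of 1 bracket and replicate number, which share a MAS5 scale) as a block, it was 19 higher, where 7.14% of all probe sets were called higher, and 2 lower, where 7.34% were.

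PNO8 at 1 µM called no member at 12 h, and at 3 h in F1 it called 1, the lower 249754_at (-0.78, adjusted p = 0.0482, limma), where 0.156% of all probe sets were called lower. That call was lost when either PNO8 array was left out. The 2 doses lie in different brackets and were not compared with each other.

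The members were set beside 107 probe sets of the filtered table that salicylic acid also raised by at least 1.5. Those 107 reached 0.75 with at least 1 of TIBA, ibuprofen and 2,4,6T, and they include UGT76B1 and GRX480. The 2 sets were not matched for the size of the salicylic acid difference. With PNO8 at 10 µM 16.5% of the members were called higher, against 67.3% of those 107, with medians of 0.33 and 1.68. With AgNO3 the shares were 41.8% of the members and 77.6% of the 107, with medians of 0.51 and 1.60. With CHX the shares were close, 54.4% of the members and 57% of the 107. The difference between the 2 sets was not tested.

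**Figure D3:**
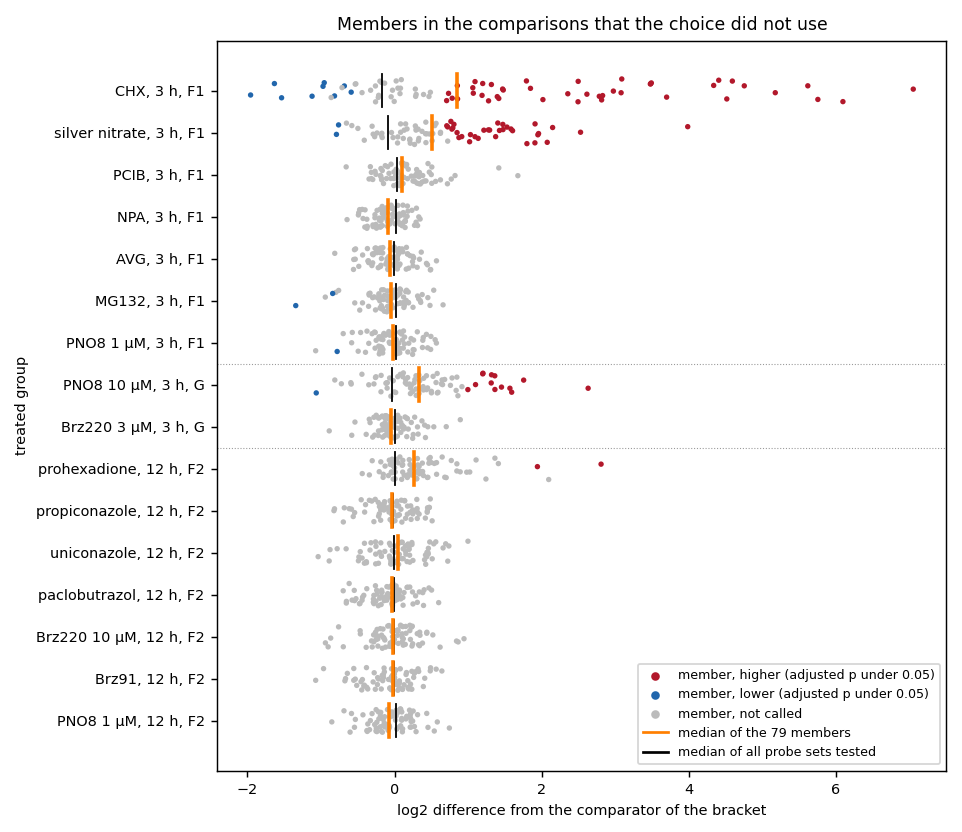
Log2 difference of each of the 79 members (points) in the 16 comparisons that did not use the arrays of the rule. Red and blue points were called higher and lower at an adjusted p under 0.05, orange bars mark the members' median and black bars the median of all probe sets tested. The members' median is 0.85 for CHX, 0.51 for AgNO3, 0.33 for PNO8 at 10 µM and 0.26 for prohexadione at 12 h.

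Prohexadione, which inhibits late steps of gibberellin synthesis, called only 3 probe sets of the whole table at 12 h, all higher (0.0173% of those tested), and 2 of these were members. Probe set 245265_at had 1812.7 and 2099.0 in prohexadione seedlings, against 338.9 and 491.2 in the F2 mock, a difference of 1.94 ± 0.36 (SE, adjusted p = 0.00842, limma). Probe set 256766_at had 6119.6 and 3591.3 in prohexadione seedlings, against 499.2 and 619.9 in the F2 mock, a difference of 2.81 ± 0.57 (SE, adjusted p = 0.0403, limma). Both lay below their values with salicylic acid, which were 21315.5 and 14166.1 for 245265_at and 27563.0 and 27166.6 for 256766_at. Over the 79 members, 45 were higher than the mock in both replicates and 7 lower in both, which was not counted over all probe sets. On the group means 74.7% of the members were higher than the mock, beside 51.8% of all probe sets. The members' median was 0.26, beside 0.01 over all probe sets. Neither call remained when any 1 of the 4 arrays was left out, and 256766_at was not called with the scaling set as a block (adjusted p = 0.077).

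Other members at the top of the salicylic acid order were also apart at 12 h without being called. Probe set 265837_at had 1684.5 and 1181.6 in prohexadione seedlings, against 138.2 and 350.1 in the F2 mock. Probe set 257382_at had 182.3 and 311.9 in prohexadione seedlings, against 8.2 and 17.1 in the F2 mock, and with the scaling set as a block it was called at 1.36, beside 249754_at at 1.11 and 245265_at. That block fit called 3 members higher, where 0.0347% of all probe sets were. At 3 h, set against the other 6 inhibitors in a comparison added after these values were seen, prohexadione called 3 members higher, where 0.0925% of all probe sets were called higher. Probe set 249754_at had 3477.0 and 3182.8 in prohexadione seedlings at 3 h and differed by 1.38 (adjusted p = 4.79e-05, limma). Probe set 251705_at differed by 1.28 (adjusted p = 0.00389) and 256766_at by 1.97 (adjusted p = 0.024). When either prohexadione array was left out, 1 member was called. No named member was called with prohexadione at either time in the fits without the block. With the block at 3 h 7 members were called, where 4.86% of all probe sets were, among them AT1G29020 at 0.71 and AT1G74440 at 0.50, both higher, and AT4G01700, lower at -0.64.

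**Figure D4:**
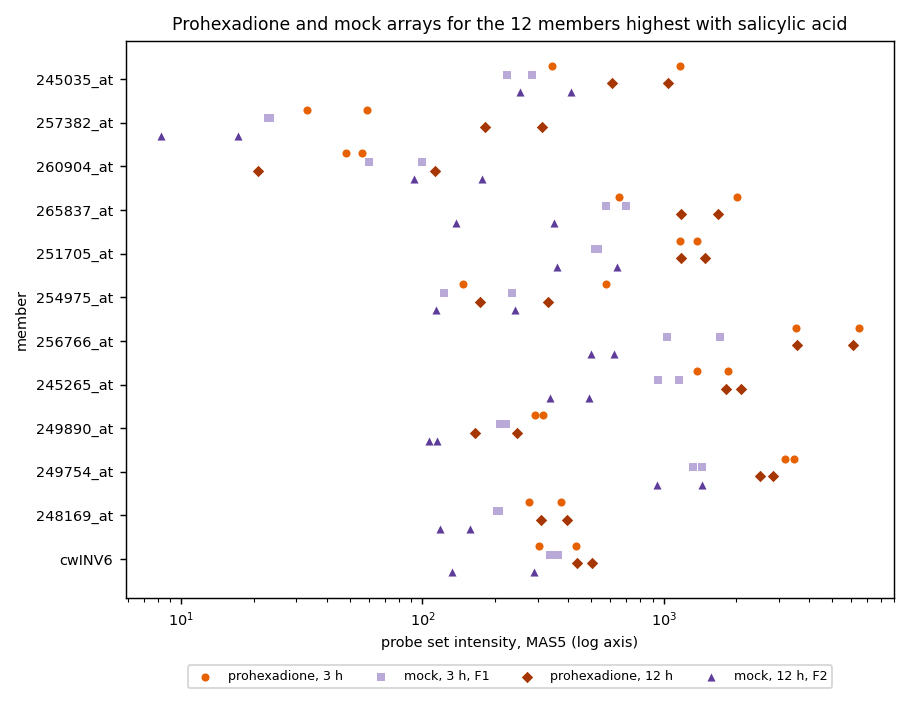
Probe set intensity (log axis) on single arrays for the 12 members with the largest salicylic acid differences, with prohexadione and mock at 3 h in F1 and at 12 h in F2, 2 arrays each. At 12 h 256766_at had 6119.6 and 3591.3 with prohexadione, against 499.2 and 619.9 in the mock. The 12 h diamonds lie right of the 12 h mock triangles in most rows, with 260904_at and 254975_at among those that overlap.

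The 2 PCIB arrays disagreed on the members. Replicate 1 was the highest array outside salicylic acid for 7 members, and 12 members were at least 1 above the comparator in replicate 1 and none in replicate 2. How many of all probe sets were that far above was not counted. The members' median was 0.29 in replicate 1 and -0.14 in replicate 2, beside 0.02 and 0.05 over all probe sets. Probe set 266385_at had 9976.4 in replicate 1 and 728.6 in replicate 2, and 256766_at had 6636.7 and 612.6. No member was called for PCIB, where 0.0925% of all probe sets were called. At an unadjusted p under 0.05 there were 7 members (8.86%), beside 2.83% of all probe sets. Without replicate 2 the count was 5.

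MG132 called 2 members, both lower, where 0.306% of all probe sets were called lower. Probe set 265067_at fell by 1.34 (adjusted p = 0.00217, limma). AT2G39210 fell by 0.84 (SE 0.22, adjusted p = 0.04996, limma), and neither call remained when either MG132 array was left out. In every comparison not yet described limma called no member. Over all probe sets the share called was 0.0462% for NPA and 0.451% for AVG. At 12 h propiconazole, paclobutrazol and Brz91 each had 0.0289% called, PNO8 at 1 µM had 0.0462%, Brz220 0.052% and uniconazole 0.0636%, while Brz220 at 3 µM had 0.0116%. At an unadjusted p under 0.05 NPA held 2 members (2.53%), beside 2.86% of all probe sets, and AVG held 5 (6.33%), beside 4.41%. At 12 h uniconazole held 6 (7.59%), beside 3.8% of all, and Brz220 held 5 (6.33%), beside 2.13%. Brz91 held 3 (3.8%), beside 2.28%, propiconazole 2 (2.53%), beside 2.16%, paclobutrazol 1 (1.27%), beside 1.33%, and PNO8 at 1 µM 1 (1.27%), beside 1.57%. Brz220 at 3 µM held 2 (2.53%), beside 1.27%.

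With the scaling set as a block some of these comparisons called members. AT2G39210 was then the named member called most often: it was higher by 0.69 with uniconazole and by 0.84 with Brz220 at 12 h, and it fell by 0.66 with PCIB and by 0.54 with AVG. CYP71B23 fell by 0.81 and AT4G01700 by 0.56 with AVG. SGT1A rose by 0.53 with MG132, and AT5G19240 rose by 0.55 with PNO8 at 1 µM and 3 h. In that fit 2 members were called for uniconazole (2.36% of all probe sets), 2 for Brz220 at 12 h (0.723%), 2 for PCIB (0.561%), 3 for AVG (2.76%), 4 for MG132 (2.39%) and 3 for PNO8 at 1 µM and 3 h (2.42%).

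Over the 16 comparisons 18 members were called in none without the block, and 14 in none with it. The share of all probe sets called in none was not counted, so these counts describe the members alone. The 18 include 245035_at, 265837_at and 254975_at among the largest differences, and among the named genes AT3G28510, AT5G55450, AT5G05900, AT3G45620, AT1G03400, AT2G32160, AT1G13750, AT3G48080 and AT1G16260. With the block 245035_at was called with AgNO3 at 0.72 and AT3G45620 at 0.52, both higher, and with CHX AT1G16260 was called higher at 0.49 and 255503_at lower at -0.53. In contrast 12 members were higher in at least 3, a count also not made over all probe sets. Of these 12, AT1G35710, AT5G19240, AT5G52760, CYP71B23, AT2G39210 and SGT1A have a name. AT2G39210 and SGT1A thus rose with CHX, AgNO3 and PNO8 at 10 µM. The EDS1 neighbour AT3G48080 passed the test in none of the 16, with or without the block. AT3G48080 was dim, with 89.4 to 293.4 on the arrays outside salicylic acid, and neither F1 mock array had it above the percentile of the filter. On the same arrays SGT1A had at least 669.1 and AT2G39210 at least 1726.4. Whether the lack of calls for AT3G48080 comes from its low signal was not tested.

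For context, 10 lists of genes of salicylic acid biology, defence, detoxification and tissue markers were read in the contrast of salicylic acid with mock, where 2.12% of all probe sets were called higher. Of 119 listed genes 19 were measured by a probe set naming 1 gene and 18 were tested, so the lists are covered thinly. None of these 19 is a member. Whether the other listed genes are among the 43 members not listed in the probe annotation was not determined. Of the 18 tested, 8 were higher and none lower, where 0.532% of all were called lower. Of salicylic acid synthesis and metabolism 3 of 4 were higher, with UGT76B1, which glycosylates the defence signal N-hydroxypipecolic acid and salicylic acid, at 15445.2 and 25520.8 with salicylic acid, against 1041.7 and 595.7 in the mock. SARD4, of pipecolic acid synthesis, had 4160.1 and 5174.8 with salicylic acid, against 705.7 and 800.8 in the mock. SAG101, a partner of EDS1, rose by 1.07 (adjusted p = 0.0386, limma), a call lost when any 1 of the 4 arrays was left out, and UGT74F1 was not called at -0.17. GRX480, a glutaredoxin that binds TGA factors, rose by 2.05. It was the only gene of the salicylic acid signalling list with a probe set naming 1 gene in the annotation. The array may hold others of the list under probe sets that the annotation does not name. The lists were made with earlier results of these data known. Those covered UGT76B1, SAG101, GRX480, GSTU22, GSTU25, UGT73B4, UGT73B5, WRKY53, WRKY6, OPCL1, PDF1.2 and LHCB4.3. The counts called in the lists are therefore a description and no independent support.

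Of the 4 detoxification genes tested 3 rose, the glutathione transferases GSTU25 by 3.52 and GSTU22 by 2.60 and the glycosyltransferase UGT73B4 by 2.68. UGT73B5 was not called at 0.94 (adjusted p = 0.146), and was called with the scaling set as a block (adjusted p = 0.0365). The defence regulator WRKY53 rose by 1.67 (1 of the 2 WRKY genes tested). WRKY6 was not called at 0.84 (adjusted p = 0.178, limma), and was called with the block (adjusted p = 0.0357, limma). The block fit thus called 10 listed genes higher, where 5.54% of all probe sets were higher. The jasmonate genes OPCL1 (0.52) and PDF1.2 (-0.51), the secretion gene SEC61A (0.22) and the receptor kinase EFR (0.50) were not called, which is 0 of 4. The root hair expansins EXPA7 and EXPA18 had differences of -1.01 and -0.99, with 1259.5 and 478.1 with salicylic acid, against 2219.2 and 1343.7 in the mock, for EXPA7. They were not called in that fit and both were lower with the scaling set as a block, where 4.81% of all probe sets were lower. The shoot gene LHCB4.3 was at 0.15. Both kinds of marker were present in the 60 arrays, LHCB4.3 from 1376.9 to 8761.5 and EXPA7 from 314.9 to 2228.4, and neither of the 2 seed storage genes was measured by such a probe set. Whole seedlings mix organs, so a change in the share of cells and a change of RNA per cell cannot be told apart, and the part of the root markers in the members' differences was not tested.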

How the data were processed

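Intensity values were deposited by the authors on a linear scale, and per the submitters' processing notes MAS5 made them; neither version nor target of the scaling is given in the sources used here. All 60 columns matched 1 sample each. Intensities had a trimmed mean (2% at each end) that was constant within a bracket and replicate number and differed between these 6 scaling sets, from 1020 to 1523. The sets serve as the replicate block. No other normalization was applied. The 64 control probe sets were left out, and a probe set was tested if 2 or more arrays had it above their own 40th percentile, which held for 17301.

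limma 3.58.1 in R 4.3.3 fitted log2(intensity + pseudocount), with the pseudocount of the rule (133.4 without its decimal), with 1 mean per group over the 60 arrays, an intensity trend and 30 residual degrees of freedom (27 with the block). Differences are on that scale and understate dim probe sets. Precision is limited by the 2 arrays per group and, without the block, by the scale difference between replicates. The median residual SD was 0.312 (0.209 with the block). The p-values are limma's, adjusted by Benjamini-Hochberg over all kept probe sets with a threshold of 0.05. On simulated data with 200 changed probe sets of 17301, the comparison for PNO8 at 10 µM recovered 27% of differences of size 1 and 97% of size 2, with 9 false calls. For CHX this was 58% and 100%, with 8. The simulation drew independent noise for each probe set. In the real CHX comparison 8310 of the 17301 probe sets were called, so the simulated recovery is not that of the real comparison.

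The members, the gene lists and the comparisons were chosen with earlier results of these data known. Named genes come from probe sets listing exactly 1 gene in the old platform annotation (13513 of 22746, of which 13436 were found in a TAIR10.1 table that gave current names and neighbours). The genes named were the 15 with the largest salicylic acid difference, the 3 highest and 3 lowest called in each comparison, the 2 nearest on each side of the 1.5 threshold, and the called or most different genes of each list; other named members are given to account for their role, and unnamed probe sets were chosen after their values were seen. Roles were assigned after the names were seen. Same-numbered arrays were checked for pairing by the correlation of their deviations between groups. It ran from -0.09 to 0.31 in F1 (median 0.15), 0.03 to 0.35 in F2 (median 0.20) and -0.01 to 0.02 in G (median 0.01). The numbers were not taken to pair samples, but they do mark the scaling sets. The fit without the block leaves the scale difference between replicates in its residual spread. It called fewer probe sets in every comparison than the fit with the block. A search for promoter motifs was not run, and sequences were not used here. Alternatives were quantile normalization, rescaling to a common trimmed mean, a pseudocount of 32, no filter, the arrays of 1 bracket alone, the block, and leaving out each array. Added after seeing the data were prohexadione at 3 h against the other 6 inhibitors and a comparator without prohexadione.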

Additional observations from a re-analysis of the deposited data

How the results depend on the processing

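None of the 149 pairs of a comparison and a member called in it, with or without the block, changed sign under the alternatives run. Of the 18 listed genes, UGT74F1 (-0.17) ranged from -0.61 to 0.27 and LHCB4.3 (0.15) from -0.094 to 0.40 when 1 array was left out, and no other changed sign. SAG101 was not called with a pseudocount of 32 (adjusted p = 0.0706), without the filter (0.0552) or on the arrays of its bracket alone (0.0812). With the scaling set as replicate block the members called became 2 for uniconazole at 12 h, 2 for Brz220 at 12 h, 2 for PCIB, 3 for AVG, 4 for MG132, 3 for PNO8 at 1 µM and 3 h, and 7 for prohexadione at 3 h; in the other 10 comparisons the block kept the count within 1.5 times. After quantile normalization they were 2 for uniconazole, 1 for Brz220 at 12 h, 1 for PCIB, 3 for AVG, 4 for MG132 and 2 for PNO8 at 1 µM and 3 h. After rescaling to a common trimmed mean they were 1 for uniconazole, 1 for Brz220 at 12 h, 1 for PCIB, 3 for AVG, 4 for MG132 and 5 for prohexadione at 3 h. A pseudocount of 32 gave 1 for prohexadione at 12 h. Fitting the arrays of 1 bracket alone gave 23 for PNO8 at 10 µM, 1 for MG132 and 0 for PNO8 at 1 µM and 3 h, and a comparator without prohexadione also gave 0 for the last. Leaving out 1 array at a time gave 0 to 0 for prohexadione at 12 h, 1 to 1 for prohexadione at 3 h, 5 to 8 for PNO8 at 10 µM, 0 to 5 for PCIB, 22 to 30 for AgNO3, 46 to 47 for CHX, and 0 to 0 for MG132 and for PNO8 at 1 µM and 3 h. The listed genes called with salicylic acid ran from 7 to 11 and the number of members from 70 to 107. The rule applied to quantile-normalized values found 83 probe sets, including all 79, and with a pseudocount of 32 it found 104, including 73. In a group left with 1 array, that array is assumed to vary like the other groups. The cause of these shifts was not tested.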
